A study of Mus musculus with 2 samples.

Results

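The Neurod1 locus is a stretch of mouse chromosome 2, chr2:79050000-79600000 in build mm9, that was tiled as 1 of the 11 separate segments of a ChIP-chip array for the cohesin subunit Rad21. Its members were all 1 kb windows in that interval holding at least 3 probes by probe midpoint, which gave 505 of the 14947 windows of the array, out of 550 windows in the span. They held 6452 of the 170567 probes, with a median of 14 probes per window and a range of 3 to 17. The 60-base probes covered 70.4% of the bases of the locus, and the largest gap without a probe was 6245 bp. It overlaps 5 annotated protein-coding genes. Itga4 (chr2:79095583-79173280), Ssfa2 (chr2:79475509-79513123) and Ppp1r1c (chr2:79547937-79658653), which reaches past the tiled end, lie on the plus strand. Cerkl (chr2:79170700-79296942) and Neurod1 (chr2:79292678-79296908) lie on the minus strand, and the Cerkl record spans all of Neurod1.

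The samples were 2 biological replicates of RAG cells, a BALB/c mouse renal adenocarcinoma line that served as the Pax6-OFF cell line of a study on chromatin folding around Pax6. RAG is a purchased line, and there was no other cell type, treatment or mock precipitation on this array type. Each replicate came from 1 flask, was cross-linked with formaldehyde, sonicated and precipitated with an antibody to Rad21, and its ChIP and input DNA were amplified across the whole genome, reamplified, labelled with different dyes and hybridised together. The DNA was not counted, so precision rests on 2 arrays and on signal over background: the median spot of the locus stood 25.9 and 32.6 times above its local background in Cy3, and 12.9 and 14.6 times in Cy5, in replicates 1 and 2. The locus was dimmer than the array as a whole, where these values were 42.9 and 55.3 in Cy3 and 19.5 and 23.1 in Cy5.

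The direction of the ratio needs to be stated first. The labels place input DNA in Cy3 and ChIP DNA in Cy5. The values below are log2 of Cy3 over Cy5, which is the opposite direction, because the authors' deposited log2 table has the sign of Cy3 over Cy5: its columns correlated with a running median of that ratio across 155444 probes at Pearson r = 0.96 in both replicates, a description of the files with no test. Which dye carried the Rad21 precipitate was therefore not settled by the files, and results are named by dye.

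Rad21 is the kleisin subunit that closes the cohesin ring. Cohesin extrudes loops of chromatin and is halted at sites where CTCF, a zinc-finger protein, is bound in a given orientation, so Rad21 and CTCF are often mapped at the same positions. Neurod1 encodes a basic helix-loop-helix transcription factor of neurons and endocrine cells, Itga4 the alpha 4 integrin subunit of leukocyte adhesion, Cerkl a ceramide kinase-like protein of the retina, Ssfa2 a sperm-specific antigen that associates with actin, and Ppp1r1c an inhibitor of protein phosphatase 1.

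Regions higher in Cy3 were called where a running median over both arrays, taken within 400 bp, passed a threshold of 0.71 log2 units at 3 or more probe positions. The locus held 6 of the 191 such regions of the array. They are named here by where they lie: I1 in an Itga4 intron, C1 and C2 in Cerkl introns, N1 and N2 in the intergenic stretch upstream of Neurod1, and S1 in an Ssfa2 intron. The sequences of the 6 are shown because they are the positions on which the results turn, with the letters that match the CTCF core consensus, a 12-letter motif searched on both strands with at most 1 mismatch, in capitals. Each stretch of 200 bases comes from the mm9 genome and is centred on the match, or on the summit where there was none.
I1, chr2:79105890-79106089, plus strand: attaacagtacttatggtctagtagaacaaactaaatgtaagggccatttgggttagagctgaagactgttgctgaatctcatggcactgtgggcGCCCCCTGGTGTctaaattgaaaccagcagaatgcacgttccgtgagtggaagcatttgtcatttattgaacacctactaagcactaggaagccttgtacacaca
C1, chr2:79208016-79208215, plus strand: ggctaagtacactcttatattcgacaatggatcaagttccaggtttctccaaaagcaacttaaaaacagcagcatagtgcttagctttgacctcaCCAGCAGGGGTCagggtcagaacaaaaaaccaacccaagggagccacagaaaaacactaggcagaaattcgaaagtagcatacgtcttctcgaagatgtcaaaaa
C2, chr2:79212517-79212716, plus strand: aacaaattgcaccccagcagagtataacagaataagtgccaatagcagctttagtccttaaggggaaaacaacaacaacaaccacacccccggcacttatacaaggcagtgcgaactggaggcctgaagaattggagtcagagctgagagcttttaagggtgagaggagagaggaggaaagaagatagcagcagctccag
N1, chr2:79339471-79339670, plus strand: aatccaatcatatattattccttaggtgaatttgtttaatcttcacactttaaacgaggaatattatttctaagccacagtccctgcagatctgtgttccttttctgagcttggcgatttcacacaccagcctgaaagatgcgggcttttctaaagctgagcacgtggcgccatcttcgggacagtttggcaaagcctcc
N2, chr2:79352226-79352425, plus strand: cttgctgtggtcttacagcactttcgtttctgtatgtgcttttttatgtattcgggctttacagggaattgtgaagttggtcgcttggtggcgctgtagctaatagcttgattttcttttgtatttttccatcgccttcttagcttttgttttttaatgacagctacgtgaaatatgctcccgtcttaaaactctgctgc
S1, chr2:79486608-79486807, plus strand: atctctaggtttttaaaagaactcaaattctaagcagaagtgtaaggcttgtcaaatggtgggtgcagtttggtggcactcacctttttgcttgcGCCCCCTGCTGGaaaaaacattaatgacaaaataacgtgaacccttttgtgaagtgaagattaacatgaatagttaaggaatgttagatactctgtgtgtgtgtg
Against them stands the sequence just upstream of the annotated starts of Neurod1 and of the long Cerkl record, shown because it is the promoter of the gene that names the locus and gave no region.
Neurod1 upstream, chr2:79296943-79297142, minus strand: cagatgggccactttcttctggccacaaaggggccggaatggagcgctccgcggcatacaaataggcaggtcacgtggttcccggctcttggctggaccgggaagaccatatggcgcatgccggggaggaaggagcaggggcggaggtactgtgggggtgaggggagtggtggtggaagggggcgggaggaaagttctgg

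A match to the CTCF core lay within 500 bp of the summit in I1, C1 and S1 and in none of C2, N1 and N2. S1 held the consensus with 0 mismatches, on the minus strand, 102.5 bp from its summit. I1 held it with 1 mismatch on the minus strand and C1 with 1 mismatch on the plus strand. On the chromosome, the order from Itga4 to Ssfa2 was thus minus, plus and minus. The share was 3 of 6 regions, or 50%, beside 127 of 191 regions, or 66.5%, on the whole array. Of 1 kb windows, 3.56% held the core in the locus and 7.82% on the array. The nearest approach to the consensus in N1 was a stretch on the minus strand at chr2:79339640-79339651 with 2 mismatches, and N2 held one with 2 mismatches 414.5 bp from its summit. C2 had none even with 2. At that looser setting, chosen after seeing the data, 35.2% of locus windows and 50.1% of all windows held a match. The absence of these letters says nothing about whether CTCF was bound.

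The region with the highest summit, N1, spanned 1740 bp at chr2:79338582-79340321, with its summit 42.7 kb upstream of the annotated Neurod1 start. The mean over its 29 probes was 1.40 in replicate 1 and 1.45 in replicate 2, which gave 1.43 ± 0.03 (SD, n = 2), within the spread of C1 below. Its highest probe read 2.41 and 2.67. At the summit the running median was 2.11 in replicate 1 and 2.06 in replicate 2. Over both arrays it was 2.08, which ranked it 24 among the 191 regions, whose summits ran from 0.73 to 2.87 with a median of 1.32.

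N2 lay 12.8 kb further upstream, at chr2:79351517-79353016, 55.4 kb from the Neurod1 start. The mean of its 25 probes was 1.34 and 1.23, or 1.29 ± 0.08 (SD, n = 2), with a summit of 1.63. It was the region with the lowest flanks: probes between 1 and 5 kb away averaged -0.23 and -0.25. N1 and N2 made up the only pair in the intergenic stretch of 178.6 kb between Neurod1 and Ssfa2, and both arrays called both of them alone.

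C1 and C2 formed a second close pair, 4.39 kb apart within Cerkl, with summits at -88.7 and -84.3 kb from the Neurod1 start, where negative is downstream. C1 covered 480 bp at chr2:79207781-79208260, the shortest of the 6, and was higher in replicate 1, with means of 1.61 and 1.18 over 8 probes, or 1.40 ± 0.30 (SD, n = 2). C2 covered 1287 bp at chr2:79212168-79213454 and read 1.14 and 1.25 over 16 probes, or 1.20 ± 0.08 (SD, n = 2). The flanks of this pair were above 0 on both arrays, at 0.28 and 0.08 for C1 and at 0.26 and 0.16 for C2. The flank interval of each of the 2 includes probes of the other.

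I1, in Itga4 at chr2:79105640-79106414, was the weakest of the 6 in its mean, with 0.96 in replicate 1 and 1.27 in replicate 2 over 10 probes, or 1.12 ± 0.22 (SD, n = 2). It was the 1 region that replicate 1 called alone did not recover, so that replicate 1 gave 5 regions and replicate 2 gave 6. S1, in Ssfa2 at chr2:79485977-79487026, 189.7 kb upstream of Neurod1, read 1.16 and 1.26 over 14 probes, or 1.21 ± 0.08 (SD, n = 2). Its summit of 1.20 equalled that of I1 to 2 decimals, and the pair ranked 117 and 116 of 191.

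**Figure D1:**
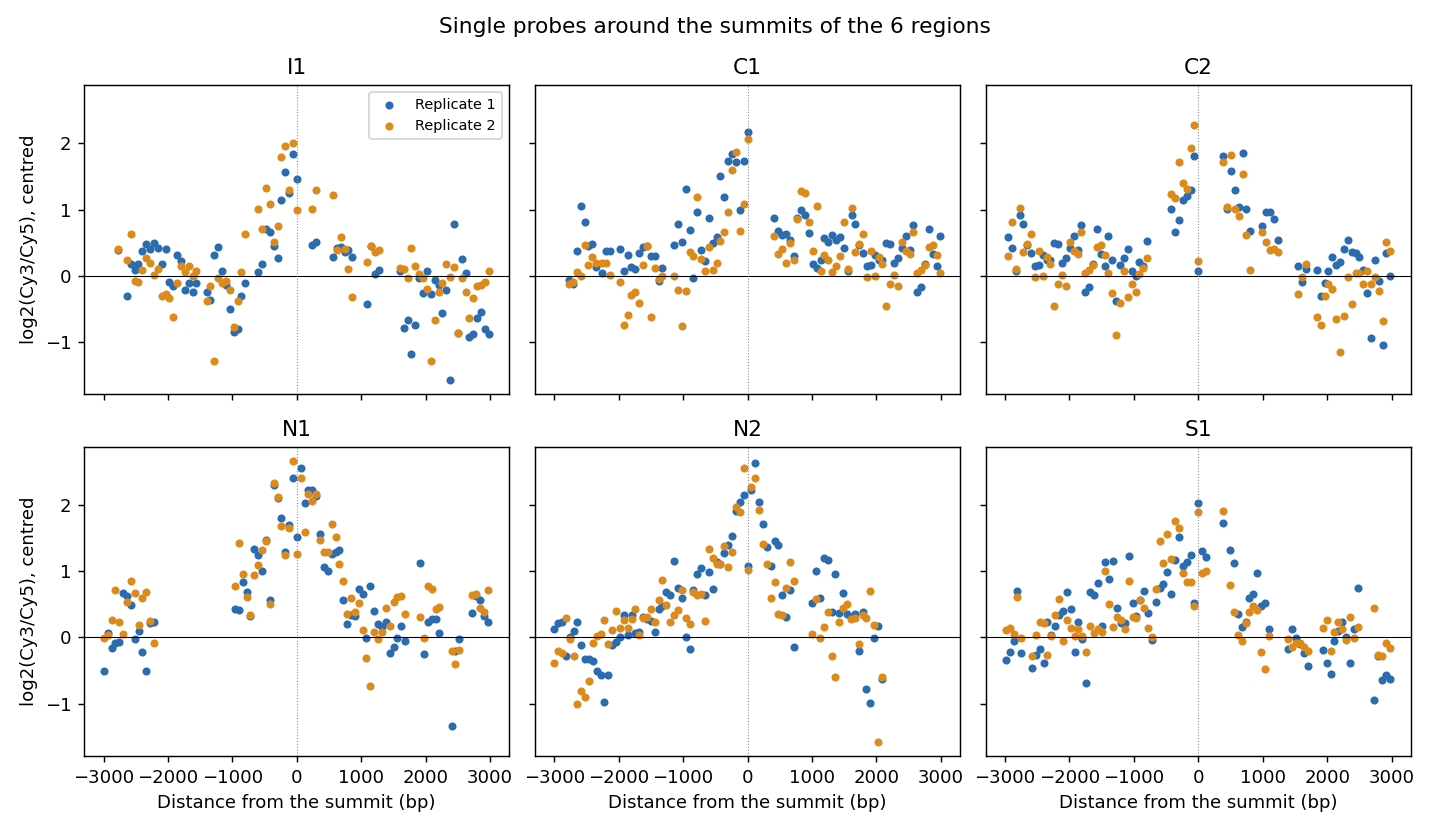
Centred log2 of Cy3 over Cy5 of single probes (y axis) within 3000 bp of the summit of each of the 6 regions (x axis, bp), with replicate 1 in blue and replicate 2 in orange. The points of both replicates rise around the summit in every panel, and the highest probe of N1 reads 2.41 and 2.67. Single probes dip: the probe at the summit of C2 reads 0.07 and 0.22, and that of N2 1.08 and 1.02. Many probes away from the summits of C1 and C2 stay above 0. Gaps are stretches without probes.

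The signals of the separate dyes show which channel moved. Within the 6 regions the median Cy3 signal was 2.34 to 7.29 times that of probes 1 to 5 kb away, and the median Cy5 signal 0.724 to 2.64 times. N1 had the highest Cy3 rise, 6.48 and 7.29 times its flanks in replicates 1 and 2, together with the highest Cy5 rise, 2.34 and 2.64 times. C1 was the exception on the Cy5 side: its Cy5 signal was below its flanks, at 0.864 and 0.724 times, while Cy3 was 2.56 and 2.34 times. The flanks of C1 include probes of C2. Their median Cy5 signal, 753 and 810, was above that of the flanks of I1, N1, N2 and S1. The Cy5 signal within C1 was 651 and 586, the lowest of the 6 regions on both arrays. Why the Cy5 ratio of C1 lay below 1 was not tested. In I1, C2, N1, N2 and S1 both dyes stood above the flanks, Cy3 more than Cy5. No Cy3 spot in a region was saturated, and 1 Cy5 spot of C2 was saturated on each array.

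**Figure D2:**
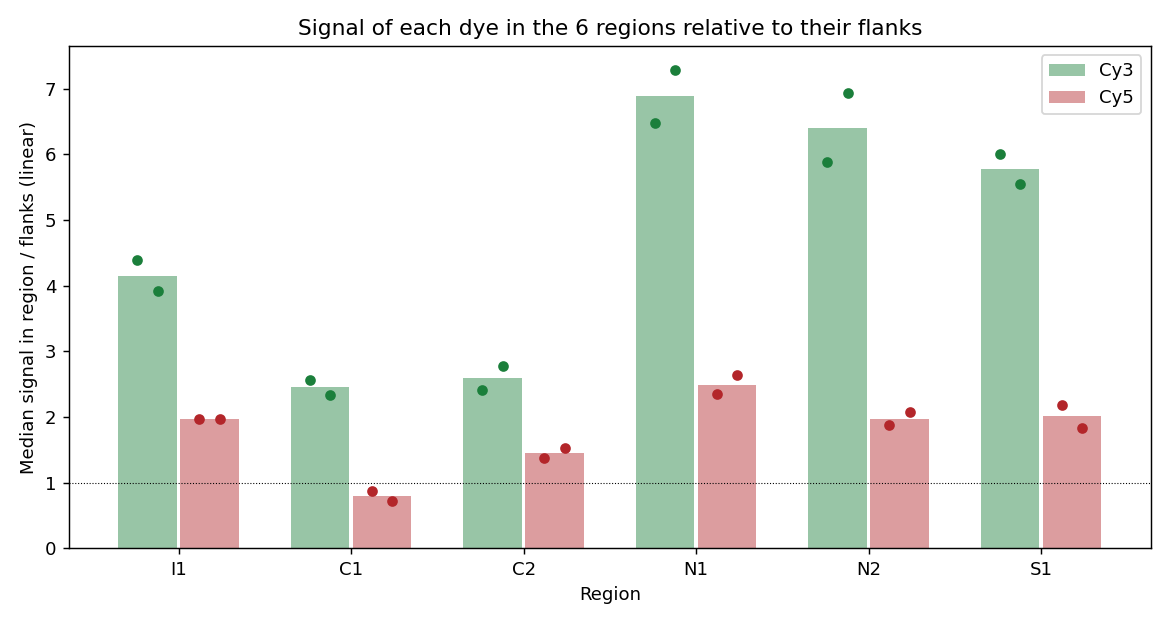
Median processed signal of the probes in each region divided by the median of probes 1 to 5 kb away (y axis, linear, from 0), for the 6 regions (x axis). Bars are the mean of the 2 replicates and points the replicates, replicate 1 at left, for Cy3 in green and Cy5 in red. Cy3 lies between 2.34 and 7.29 and Cy5 between 0.724 and 2.64. Cy5 is below 1 in C1 alone, whose flanks include probes of C2.

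Regions in the opposite direction were called in the same way with their own threshold, 1.44 log2 units, and none was found in the locus or on the array. That threshold was set from the values above the mode, which include those of the Cy3 regions and so raise it. A count of 0 at this threshold therefore cannot show that regions higher in Cy5 were absent. At the Cy3 threshold of 0.71 applied to both directions, a setting chosen after seeing the data, the array held 90 regions higher in Cy5 beside the 191 higher in Cy3, and the locus 3 beside 6. These 3 were short, 300 to 540 bp, with summits of -0.75 in Itga4, -0.87 in Cerkl and -0.87 in Ssfa2, all closer to 0 than the weakest Cy3 summit of 1.20 was above it. The probes in them had a GC content of 25.6% to 28.8%.

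The windows were then tested one by one with limma across all windows of the array, as the mean of 2 arrays against 0 with a two-sided Benjamini-Hochberg adjusted threshold of 0.05. Higher in Cy3 were 14 of the 505 locus windows, where the background was 3.86% of all windows, and higher in Cy5 were 47, where the background was 5.86%. The locus thus had 2.77% in Cy3, below the background, and 9.31% in Cy5, above it. Windows with a mean over 1 log2 unit numbered 4, all higher in Cy3, against a background of 1.13%. Windows overlapping a Cy3 region numbered 15, against a background of 2.84%.

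Of the 14 Cy3 windows, 13 overlapped 1 of the 6 regions. The other lay in Cerkl at chr2:79209000-79209999, just beside C1, with 0.56 and 0.56. Outside the locus, 383 of the 563 Cy3 windows overlapped a region and 180 did not. Windows and regions are read from the same probe values, so their overlap is not independent support for either. The highest window of the locus was chr2:79339000-79339999 in N1, at 1.77 and 1.73 over 17 probes, a mean of 1.75 ± 0.02 (SD, n = 2, limma adjusted p = 8.81e-05). It was followed by chr2:79352000-79352999 in N2, at 1.51 and 1.35 (limma adjusted p = 0.000176). Below these came chr2:79486000-79486999 in S1, at 1.16 and 1.26 with a mean of 1.21 ± 0.08, and chr2:79212000-79212999 in C2, at 1.00 and 1.41 with a mean of 1.21 ± 0.29. The windows of S1 and C2 did not differ beyond the spread of the 2 arrays. The tenth of the ranking, chr2:79207000-79207999 overlapping C1, was the least even of them, at 0.84 and 0.34 (limma adjusted p = 0.0317). Its call was lost with no background subtracted, with the deposited values, without saturated probes and with GC correction, where the limma adjusted p was 0.053, 0.0854, 0.0518 and 0.0603.

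**Figure D3:**
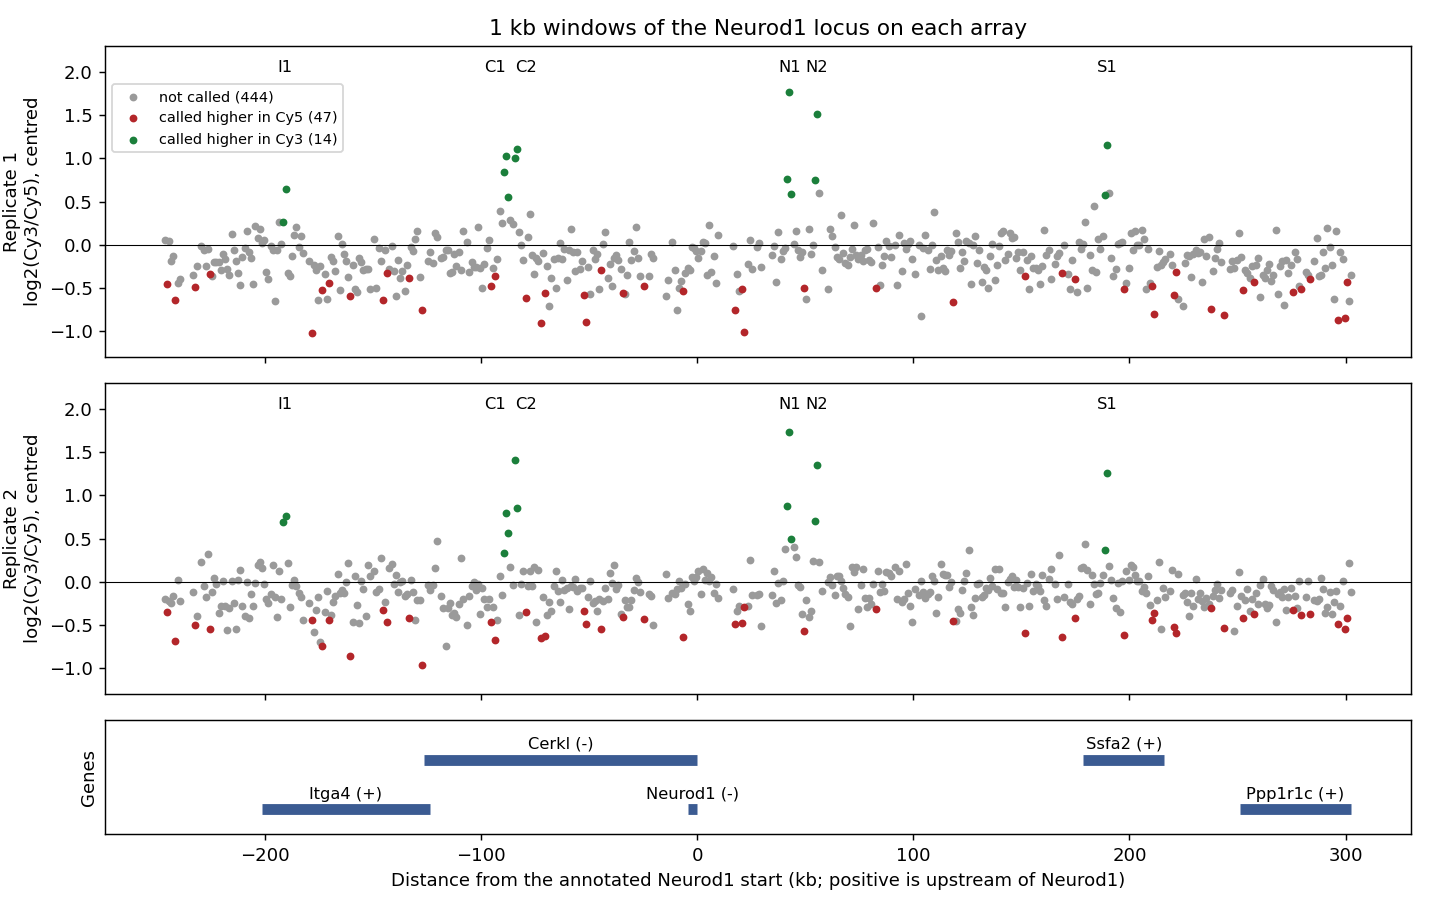
Centred log2 of Cy3 over Cy5 of the 505 windows on replicate 1 (top) and replicate 2 (middle) against distance from the annotated Neurod1 start in kb (x axis, positive is upstream of Neurod1), with the gene records below and their strand in brackets. Windows called higher in Cy3 (14, green) stand in groups under the labels of the 6 regions, windows called higher in Cy5 (47, red) are spread along the locus, and 444 (grey) passed neither test.

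The 47 Cy5 windows were small in size and spread out. Their means ran from -0.86 to -0.39 with a median of -0.48, none exceeded 1 log2 unit, and both arrays had the same sign in all 47. Passing a test of the mean of 2 arrays nearly requires such agreement, so it is no support for the calls. All 829 Cy5 windows outside the locus had it too. Of the 47 locus windows, those lowest in the ratio were chr2:79169000-79169999 in Itga4, at -0.76 and -0.96 over 3 probes, chr2:79224000-79224999 in Cerkl, at -0.90 and -0.65, and chr2:79118000-79118999 in Itga4, at -1.02 and -0.44. After them came chr2:79136000-79136999 in Itga4, at -0.59 and -0.86, and chr2:79596000-79596999 in Ppp1r1c, at -0.84 and -0.55. Their calls depended on the variance prior. With a trended robust prior in limma, 0 of the 47 passed the threshold, whereas all 14 Cy3 windows did. That prior varies with the mean ratio of a window, the quantity tested, so it can treat the 2 directions differently. It is not an independent check of the calls in either direction. With 2 arrays each window has 1 residual degree of freedom, and the test leans on a prior worth 6.99 more.

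Base composition and brightness moved with these windows. The probes of the Cy5 windows had a mean GC content of 34.8%, those of the Cy3 windows 41.8% and those of the whole locus 38.6%. All 4 signals of a probe were well above background for 68.6% of probes in the Cy5 windows, 91.3% in the Cy3 windows and 85.1% in the locus. When the dependence of the ratio on GC was removed, 4 windows were higher in Cy5 and 12 higher in Cy3. Across the 505 windows the ratio correlated with GC at Pearson r = 0.45 in replicate 1 and 0.32 in replicate 2, as a description of windows that share 2 arrays and their dyes.

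Over all 505 windows the 2 replicates correlated at Pearson r = 0.61 and Spearman rho = 0.38. Without the windows that overlap a region, the 490 that remained gave 0.37 and 0.32. Windows outside the locus agreed more closely, at Pearson r = 0.69 and Spearman rho = 0.54, and at 0.52 and 0.50 without those that overlap a region. In 358 of the 505 locus windows both arrays had the same sign, beside 10106 of the 14442 windows outside the locus.

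**Figure D4:**
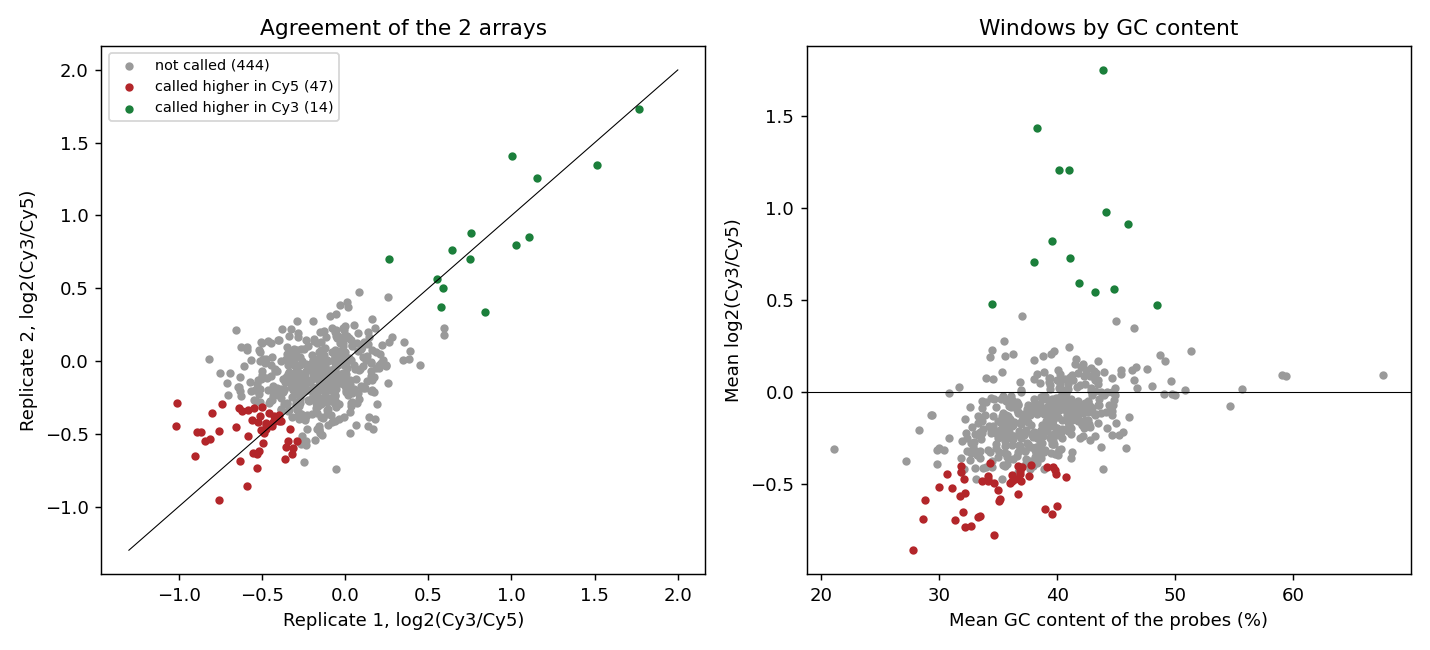
Left, centred log2 of Cy3 over Cy5 of the 505 windows on replicate 1 (x axis) and replicate 2 (y axis), with the line of equality. Right, the mean of both replicates (y axis) against the mean GC content of the probes in percent (x axis). Green windows were called higher in Cy3 (14), red higher in Cy5 (47) and grey neither (444), and the red windows reach a GC content of 40.7% at most while the green ones lie between 34.5% and 48.4%.

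The nearest Cy3 windows on either side of Neurod1 ended at -82.9 kb and began at 41.1 kb from its start. The 104 windows between them, which by this definition hold no Cy3 call, had means from -0.78 to 0.24 with a median of -0.14. Of these, 12 were higher in Cy5, where the background was 5.86% of all windows and 9.31% in the locus. None of the 12 passed with the trended robust prior, which varies with the tested ratio itself. The 22 windows within 12 kb of the start lay between -0.58 and 0.12, and 1 of them, chr2:79290000-79290999, was higher in Cy5. The window that holds the start, chr2:79296000-79296999, read -0.08 in replicate 1 and 0.06 in replicate 2. The 3 probes of the upstream sequence printed above read 0.22 and 0.37 on average.

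Gene starts were compared as the mean of all probes within 1 kb on either side of the start of each gene record, over 123 protein-coding genes of the array. Of these, 26.0% were higher in Cy3 and 2.44% higher in Cy5, so a call in Cy3 was common among starts. In the locus, the interval of Ssfa2 passed, at 0.16 and 0.25 over 33 probes, or 0.20 ± 0.07 (SD, n = 2, limma adjusted p = 0.0283), which is 1 of 5 genes. The call of Ssfa2 was lost under normexp, without background subtraction, with loess, with mode centring, with the deposited values and with an interval of 500 bp, where its limma adjusted p ranged from 0.0626 to 0.788. Its value was 0.19 under normexp, 0.21 without background subtraction, 0.19 with loess and 0.17 with the deposited values, and 0.12 with mode centring and 0.06 with the shorter interval. Itga4 read 0.08 and 0.18, or 0.13 ± 0.07 (limma adjusted p = 0.218). Ppp1r1c read 0.01 and -0.03.

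Neurod1 and Cerkl gave 1 value between them, since the longest Cerkl record, made by a single processed transcript, starts 34 bp from Neurod1 and the same 32 probes lie in both intervals. That value was -0.12 in replicate 1 and 0.10 in replicate 2, or -0.01 ± 0.15 (SD, n = 2, limma adjusted p = 0.926), so the arrays differed in sign. The start of Cerkl in RefSeq, placed at position 79269145 of mm9 by an exact match of its promoter sequence, read -0.05 and -0.02 over 29 probes. The prior of this fit had infinite degrees of freedom, so all starts shared 1 standard error of 0.07 log2 units.

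The starts of a fixed list of developmental regulators tiled on the same array were read in the same way. Of the 11 genes, 10 had a start interval, and Sox1 had no record under that symbol in the annotation used. Their means ran from -0.06 for Six3 to 0.09 for Bmp4, with Pax6, the eye and pancreas regulator at the centre of the study, at 0.00 and 0.04. None of the 10 passed the test, where 26.0% of all starts were higher in Cy3 and 2.44% higher in Cy5. Prox1 was among those whose arrays differed in sign, at 0.10 and -0.16. The difference between Neurod1 and these genes was not tested.

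Averaged over whole gene spans, 127 protein-coding genes could be compared, of which 17.3% were higher in Cy3 and 15.0% higher in Cy5. Itga4, at -0.23 and -0.14 over 977 probes, was higher in Cy5 with -0.18 ± 0.06 (SD, n = 2, limma adjusted p = 0.0374). Cerkl, at -0.15 and -0.13 over 1474 probes, was higher in Cy5 with -0.14 ± 0.02 (limma adjusted p = 0.0397), although it holds the regions C1 and C2. Ppp1r1c, of which only the tiled part was measured, was higher in Cy5 with -0.25 ± 0.08 (limma adjusted p = 0.0352). Neurod1, at -0.15 and -0.09 over 67 probes, did not pass with -0.12 ± 0.04 (limma adjusted p = 0.0615). It did pass as higher in Cy5 under 4 settings, where the limma adjusted p was 0.0379 with the trended robust prior, 0.0352 with no background subtracted, 0.0107 with mode centring and 0.0251 with GC correction. Ssfa2 did not pass with -0.04 ± 0.03 (limma adjusted p = 0.39). With GC correction the calls of Itga4 and Cerkl were lost, with adjusted p of 0.0549 and 0.235 in limma. All 3 calls, Itga4, Cerkl and Ppp1r1c, were lost under normexp, with loess, with the deposited values, with only probes well above background and without saturated probes. Without saturated probes the values were -0.18, -0.14 and -0.25 and the limma adjusted p of each was 0.0596. Under normexp the values were -0.03, -0.01 and -0.09, and with loess -0.04, -0.02 and -0.11.

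**Figure D5:**
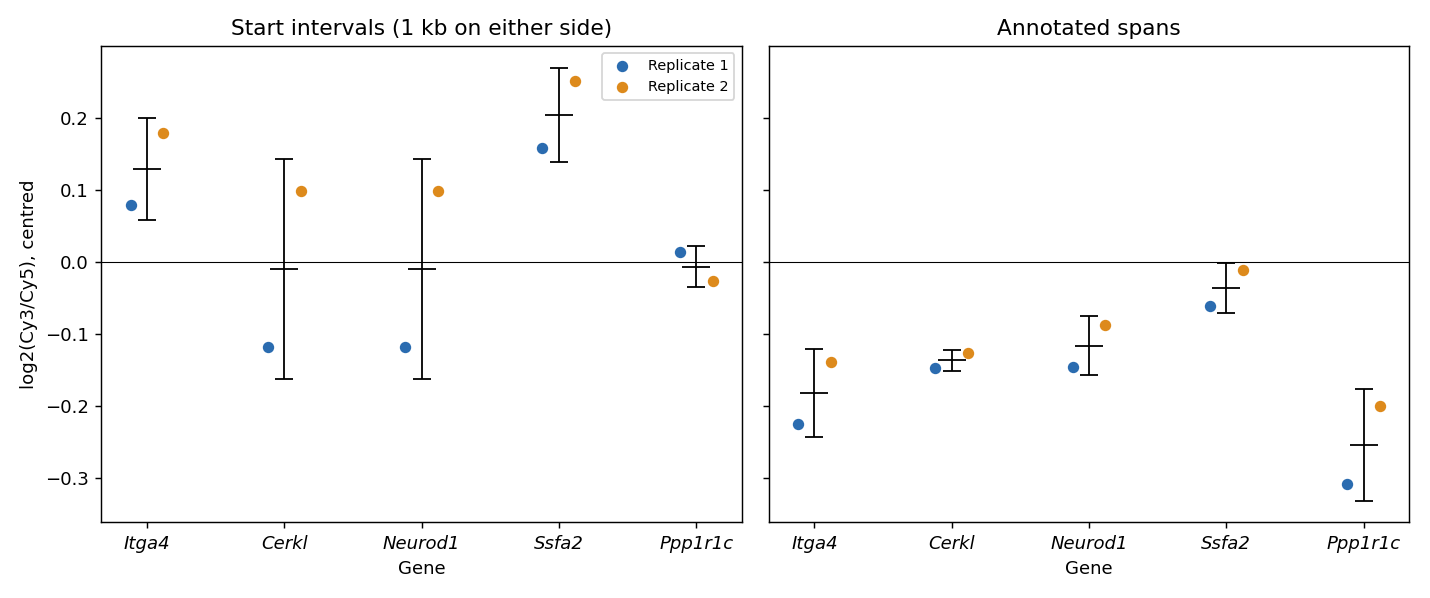
Centred log2 of Cy3 over Cy5 (y axis) of the 5 genes of the locus (x axis) over the start interval (left) and the annotated span (right). Points are the replicates, the short line is their mean and the bar the SD (n = 2). Start values lie between -0.12 and 0.25 and spans between -0.31 and -0.01, and Cerkl and Neurod1 share 1 start value because they share the same probes.

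The locus as a whole lay slightly towards Cy5. Its windows averaged -0.17 in replicate 1 and -0.11 in replicate 2, and all other windows -0.06 and -0.04, so that the difference was -0.09 ± 0.02 (SD, n = 2). With 2 arrays no exact test can go below p = 0.5, and none was made. Among the 11 tiled segments the locus ranked 10 in mean, 2 in the share of Cy5 windows, 10 in the share of Cy3 windows and 10 in GC content. In regions higher in Cy3 it ranked 5, with 10.9 per Mb. With the dependence on GC removed, the difference between the locus and the rest was -0.03.

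Matches to the CTCF core were not in general sites of a high ratio. The locus held 21 of them with at most 1 mismatch, 3 near the summits of I1, C1 and S1 and 18 elsewhere. For 14 of these 18, at least 3 probes lay within 250 bp, and their means ran from -0.37 to 0.14 with a median of -0.06. The 18 were set apart by lying away from summits called on the same ratios. The lack of high means among them therefore follows largely from that choice. Of the 2 matches with 0 mismatches, that in S1 averaged 1.27 and 1.04 over 5 probes, whereas the other, at chr2:79302258-79302269, 5.36 kb upstream of Neurod1, averaged 0.15 and 0.03 over 8 probes. The locus windows with a core were higher in Cy3 in 3 of 18 cases, or 16.7%, and those without in 11 of 487, or 2.26%. On the whole array the shares were 16.9% and 2.76%. Higher in Cy5 were 1 of 18 locus windows with the core and 46 of 487 without. On the whole array these counts were 36 of 1169 and 840 of 13778. What they mean for the dye of the precipitate was not tested.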

How the data were processed

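Genomic DNA from 2 RAG replicates was hybridised to 2-colour Agilent 4x180K tiling arrays. Per the file headers, the intensity values were extracted by Feature Extraction 10.5.1.1, which subtracted background and scaled the dyes; the quality marks per spot (unit other) come from the same deposited files. The authors also deposited smoothed log2 ratios made with Ringo, whose parameters are not given in the sources used here; they served as an alternative.

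From the processed signals, log2 Cy3/Cy5 was taken per spot, spots marked as outliers (27) were left out, spots of 1 probe were averaged, and each array was centred on its median. Values were averaged in 1 kb windows (3 or more probes), within 1 kb of gene starts and over gene spans (10 or more probes), and tested with limma 3.58.1 in R 4.3.3 (intercept, eBayes, Benjamini-Hochberg over all features). Gene records are GENCODE on NCBIM37, the build of the probes; RefSeq promoters were matched by sequence. Regions joined positions under 600 bp apart whose running median (5 or more values) passed a threshold. For Cy3 regions this was the 0.99 quantile of the values below the mode, turned over to the other side of it. For Cy5 regions the values above the mode were used in the same way. Scripts were tested on simulated data. The 2 arrays, on different slides, are 1 group, so array and replicate cannot be told apart.

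Named were all protein-coding genes and regions of the locus, its 10 highest and 5 lowest windows, and 11 regulator genes. Members and lists were chosen with earlier results of these data known. Alternatives were normexp (offset 50), no background subtraction, loess, mode centring, the deposited values, filters on dim or saturated probes, GC correction, other windows, priors, intervals, region settings and motif settings, and each replicate alone.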

Additional observations from a re-analysis of the deposited data

How the results depend on the processing

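The 6 regions and the 4 windows over 1 log2 unit kept their number under nearly all settings, while most calls higher in Cy5 and all gene calls did not. Under normexp the locus had 22 windows higher in Cy3, 13 higher in Cy5 and 10 of the 305 Cy3 regions of the array. It had 0 gene starts and 0 gene spans past the threshold, and a difference from the rest of -0.0147. Windows higher in Cy5 numbered 0 with the trended robust prior, which varies with the tested ratio itself. They numbered 10 with loess, 9 with the deposited values, 11 with probes well above background and 4 with GC correction. With mode centring, which shifts the arrays by -0.11 and -0.05, they numbered 116. With 500 bp windows, which divide the locus more finely, they numbered 71. Shares over the whole array are not given for these window counts. The difference of the locus from the rest was -0.02905 with loess, -0.0672 with the deposited values, -0.0643 with probes well above background and -0.0326 with GC correction. At the null quantile of 0.95 the locus held 19 of the 262 Cy5 regions of the array, beside 6 of 266 Cy3 regions. At the common threshold it held 3 of 90 Cy5 regions. Regions with the CTCF core numbered 1 with no mismatch and 5 with up to 2. Gene starts past the threshold numbered 0 with no background subtracted, loess, mode centring, the deposited values and 500 bp on either side. Gene spans past it numbered 0 with loess, the deposited values, probes well above background and no saturated probes. Signs turned for values that did not pass the test as reported: the start shared by Neurod1 and Cerkl read 0.0210 under normexp and 0.0225 with loess, and the RefSeq start of Neurod1 read 0.0175. The Ppp1r1c start read 0.115 under normexp, 0.0902 with loess, 0.0268 with the deposited values, 0.0404 with probes well above background, 0.0545 with GC correction and 0.0477 with 500 bp on either side. The Neurod1 span read 0.0238 under normexp, and the Ssfa2 span 0.0576 under normexp, 0.0557 with loess, 0.0139 with probes well above background and 0.0398 with GC correction. The cause of these changes was not tested. With 1 replicate left out, windows over 1 log2 unit ranged from 4 to 8 (8 without replicate 2), Cy3 regions from 5 to 6, and the difference from the rest from -0.11 to -0.08. Cy5 regions numbered 0, at thresholds of 1.51 without replicate 2 and 1.39 without replicate 1. Both thresholds were set from values that include the Cy3 regions, so this count is no evidence of stability. Of the 10 named windows highest in Cy3, 96 of 100 values under tested alternatives stayed past the threshold, the 4 others all being those of chr2:79207000-79207999, and of the 5 highest in Cy5, 28 of 46. No paired analysis was possible because all arrays belong to 1 group. The test rests on 2 arrays and 1 residual degree of freedom, the dye of the precipitate is not settled, and amplified DNA without a mock precipitation leaves both dyes without a further control.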
